A study of Danio rerio with 32 samples.

Results

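Cytochrome P450 enzymes are heme proteins that insert 1 oxygen atom into a substrate with electrons from a reductase. The cyp genes that encode them fall into numbered families. Families 1 to 3 mainly oxidize drugs and other foreign compounds in the liver, family 4 oxidizes fatty acids, and the higher families mostly handle sterols, bile acids, vitamin D and retinoic acid. In mammals the liver P450 enzymes, chiefly CYP2E1 with CYP1A2 and CYP3A4, turn acetaminophen into the reactive quinone imine that binds glutathione and liver proteins. Zebrafish carry large fish-specific groups of family 2 genes, often as tandem copies, whose substrates are largely unassigned.

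The P450 genes described here are the rows of the count table whose Ensembl gene name begins with cyp and a number and whose counts over the 32 libraries sum to at least 100. Of the 32519 genes in the table, 86 have such a name. The count minimum left out 34 of them and 2 more were set aside by the rule, so that 50 genes remained. They comprise 3 genes of family 1, 27 of family 2, 4 of family 3, 3 of family 4, 4 of family 27, 3 of family 46, 2 of family 26 and 1 each of families 8, 20, 24 and 51. Of the 50, 46 passed the filter on low counts, along with 11384 genes in all that were tested. CYP26A1, cyp2x6, cyp2x10.2 and the CYP27A1 copy ENSDARG00000069186 did not pass, and their values are given without a test. The name table gives some zebrafish genes their human symbols, so that CYP1A1 here is zebrafish cyp1a and CYP51A1 is cyp51.

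RNA was sequenced from livers of zebrafish larvae in 8 groups of 4 libraries, each library made from 20 pooled livers. The groups were nrf2 knockout (KO) larvae given acetaminophen (APAP), KO larvae given the solvent DMSO, wild-type (WT) larvae given APAP and WT larvae given DMSO, each collected at 12 h and at 24 h. Nrf2 is a transcription factor that drives antioxidant and drug-conjugating genes when cells meet electrophiles, and the series asks how its loss alters the response to acute liver injury by APAP. The labels give no APAP dose and no larval age, do not say which of the Nrf2 gene copies carries the mutation, and do not say whether the 4 libraries of a group came from separate clutches, so that p-values measure the spread between these pools.

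Total counts per library were 3971569 to 6298523. The Nrf2 gene NFE2L2 averaged between 30.6 and 54.1 CPM, counts scaled to one common library size, over the 8 groups. Its other copy, nfe2l2b, averaged between 1.61 and 5.57 CPM. Neither copy was called different in any comparison, so their RNA does not check the genotype labels. The libraries detected 4129 to 14683 genes, and 3 stood apart at the low end, namely KO APAP 12 h replicate 2 with 4129, WT DMSO 12 h replicate 2 with 8815 and KO DMSO 12 h replicate 3 with 9703. KO APAP 12 h replicate 2 held counts for only 25 of the 50 P450 genes. The 15 hepatocyte markers made up between 6.97% and 14.8% of counts in every library, and at most 1 of the 15 was at 0 in a library. Values per library are such CPM after scaling by the trimmed mean of M values, log2 fold changes are given ± standard error with 4 libraries in each group, and adjusted p are from the edgeR quasi-likelihood test over all 11384 genes. A gene was called at an adjusted p under 0.05. Lower RNA of a hepatocyte gene can reflect fewer hepatocytes or less RNA per hepatocyte, and these cannot be told apart in pooled livers.

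APAP raised 3 P450 genes and lowered 11. Across the 4 comparisons of APAP with DMSO, 14 of the 46 tested genes were called at least once, 11 of them in at least 2 comparisons, and none was called in opposite directions. Shares of all tested genes were counted for each comparison and not for these totals. At 12 h in KO livers, 3 genes were higher and 6 lower, where 5.22% of all tested genes were called, 3.09% higher and 2.13% lower. In WT livers at 12 h, 3 were higher and none lower, where 1.8% of all tested genes were called, 1.35% higher and 0.448% lower. At 24 h in KO livers, 1 gene was higher and 9 lower, where 5.05% of all tested genes were called, 2.05% higher and 3% lower. In WT livers at 24 h, 1 was higher and 6 lower, where 3.2% of all tested genes were called, 1.64% higher and 1.55% lower. The KO count at 12 h was 5 without KO APAP replicate 1, KO DMSO replicate 1 or KO DMSO replicate 2, and 15 with DESeq2. Fitted on those 8 libraries alone it was 2, namely CYP24A1 and cyp3a65. The WT count at 24 h ran between 2 and 4 without WT APAP replicate 2 or 3, or WT DMSO replicate 1, 2 or 3. For these alternatives the shares of all tested genes are not given here.

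Most P450 genes had negative log2 fold changes under APAP whether or not they were called. The median over the 46 genes was -0.73 in KO at 12 h, beside -0.30 over all tested genes, and -0.59 in WT at 12 h, beside -0.07. The median at 24 h was -1.47 in KO, beside -0.00 over all genes, and -0.75 in WT, beside 0.02. With genes that had no counts in 1 group placed at their bounds, the KO median at 24 h was -1.19. The log2 fold change was below 0 in all 4 comparisons for 21 genes and above 0 in all 4 for 3 genes, without a matching share of all tested genes. In KO livers at 24 h, the APAP and DMSO libraries did not overlap for 21 of the 46 genes, 19 of them lower and 2 higher, where 17.5% of all tested genes did not overlap, 9.3% lower and 8.2% higher. The number was smaller in the other comparisons, at 12 in KO at 12 h, 8 in WT at 12 h and 10 in WT at 24 h. Shares of all tested genes are not given here for those comparisons.

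**Figure D1:**
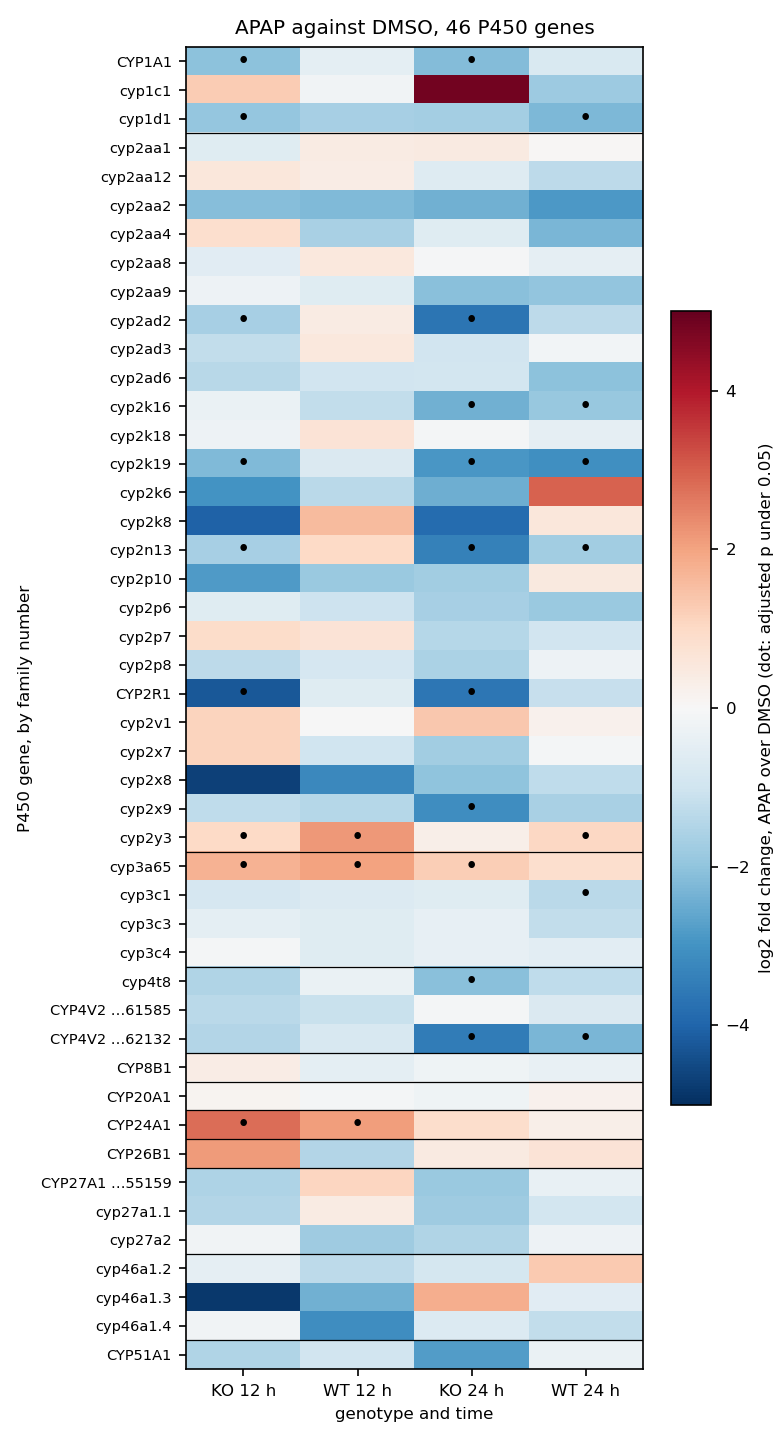
Log2 fold change of APAP over DMSO for the 46 tested P450 genes, in rows ordered by family number with lines between families, in KO and WT livers at 12 h and 24 h; dots mark adjusted p under 0.05. Blue predominates in each column, with 38 of 46 genes below 0 in KO at 24 h, while cyp3a65, CYP24A1 and cyp2y3 are red in all 4 columns; the strong colours of cyp1c1, cyp2x8, cyp2k8 and cyp46a1.3 rest on few counts and carry no dot.

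The gene cyp3a65 encodes a zebrafish enzyme of liver and gut that is the counterpart of human CYP3A4. At 12 h the KO libraries had 1287, 827, 1969.7 and 2646 CPM under APAP, against 319.8, 566, 721 and 434 CPM under DMSO. The WT libraries at 12 h had 1003, 927, 2753 and 2219.7 CPM under APAP, against 306, 334, 391 and 669.6 CPM under DMSO. Every APAP library lay above every DMSO library of its genotype. The log2 fold change was 1.72 ± 0.37 in KO (adjusted p = 0.00267) and 2.02 ± 0.37 in WT (adjusted p = 6.82e-04), and both calls held in every alternative run.

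At 24 h the same gene separated by treatment in KO and not in WT. KO livers had 2484, 2993, 3817 and 1962 CPM under APAP, against 1117, 1166, 1328 and 1159 CPM under DMSO, again without overlap (log2 fold change 1.24 ± 0.37, adjusted p = 0.0351). WT livers had 3947, 3293.9, 1655 and 6321 CPM under APAP, against 1733, 1948, 1645 and 3214 CPM under DMSO. These WT groups overlapped, and the difference did not pass the test (0.83 ± 0.36, adjusted p = 0.292). The KO call at 24 h was lost when any library of the pair other than KO APAP replicate 4 was left out (adjusted p between 0.0567 and 0.130). The response of KO differed from that of WT by -0.30 ± 0.51 at 12 h and 0.41 ± 0.51 at 24 h, neither of which passed the test.

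CYP24A1 encodes the mitochondrial hydroxylase that starts the breakdown of active vitamin D and is itself a known target of the vitamin D receptor. KO livers at 12 h had 403, 686, 995 and 603 CPM under APAP, against 101, 37.1, 63.6 and 183 CPM under DMSO. WT livers at 12 h had 233, 199.8, 353 and 438 CPM under APAP, against 52.4, 119.7, 35.1 and 77.2 CPM under DMSO. In both genotypes the lowest APAP library exceeded the highest DMSO library. The log2 fold change was 2.80 ± 0.57 in KO (adjusted p = 0.00141) and 2.104 ± 0.56 in WT (adjusted p = 0.0326). The WT call was lost without WT APAP replicate 3 or 4 or without WT DMSO replicate 1, 3 or 4, with adjusted p between 0.0778 and 0.144, and with limma voom (0.0928), and the KO call held in every alternative.

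By 24 h the CYP24A1 groups overlapped widely. KO livers had 537, 541, 1299 and 1684 CPM under APAP, against 353, 96.9, 659 and 1085 CPM under DMSO, and WT livers had 982, 409, 460.4 and 1611 CPM under APAP, against 745, 438, 1427 and 233 CPM under DMSO. Its log2 fold change was 0.89 ± 0.54 in KO (adjusted p = 0.489) and 0.28 ± 0.53 in WT (adjusted p = 0.939). The vitamin D receptor gene VDR ENSDARG00000070721 was not called in any of the 4 comparisons, with log2 fold changes between -1.03 and 0.12. The other genes named VDR, ENSDARG00000099483 and ENSDARG00000112923, did not pass the filter on low counts and were not tested.

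The gene cyp2y3 belongs to a fish family 2 group and has been tied to ethanol oxidation in zebrafish larvae, a reaction of CYP2E1 in mammals. KO livers at 12 h had 286, 164, 391 and 252 CPM under APAP, against 129, 117, 136 and 166 CPM under DMSO. WT livers at 12 h had 604, 418, 627 and 599 CPM under APAP, against 83.9, 188, 96.8 and 130.3 CPM under DMSO. The WT groups were far apart, whereas KO APAP replicate 2 fell just below the highest KO DMSO library. The log2 fold change was 0.99 ± 0.29 in KO (adjusted p = 0.0323) and 2.17 ± 0.30 in WT (adjusted p = 3.97e-06). The KO call was lost without any single library except KO APAP replicate 2 or KO DMSO replicate 4 (adjusted p between 0.0510 and 0.134), with relative log expression scaling (0.0741) and without the filter (0.138), and the WT call held in every alternative.

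At 24 h cyp2y3 had 212, 214, 259 and 249 CPM in KO livers under APAP, against 203, 126, 247 and 183 CPM under DMSO. WT livers at 24 h had 446, 317, 522 and 464 CPM under APAP, against 174, 265, 219 and 206 CPM under DMSO. Only the WT groups were apart, with a log2 fold change of 1.02 ± 0.29 (adjusted p = 0.0369), against 0.30 in KO, which was not called. The WT call was lost when any library but WT APAP replicate 2 was left out, with adjusted p between 0.0518 and 0.139, and without the filter (0.149). The KO response minus the WT response was -1.18 ± 0.40 at 12 h, which did not pass the test (adjusted p = 0.419).

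**Figure D2:**
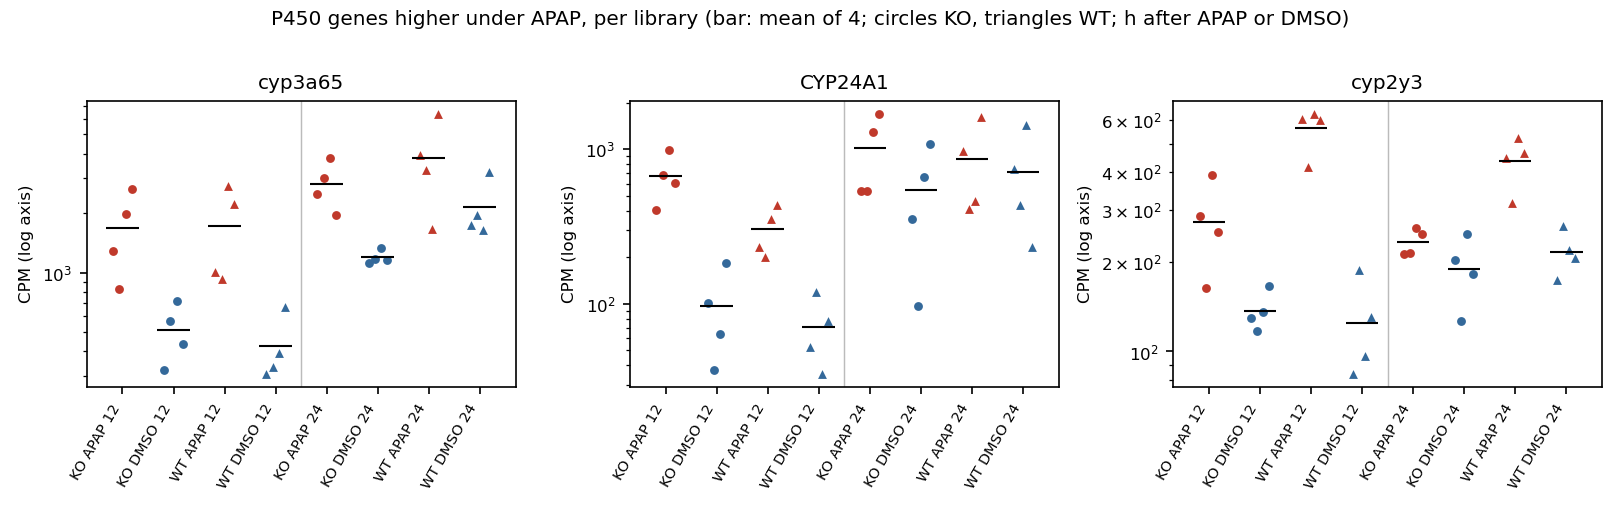
CPM (log axis) of cyp3a65, CYP24A1 and cyp2y3 in each library of the 8 groups, with 12 h left and 24 h right of the grey line; circles are KO, triangles WT, red APAP, blue DMSO, and bars the mean of 4. At 12 h the red points lie above the blue ones in both genotypes except for 1 KO library of cyp2y3, and at 24 h CYP24A1 no longer separates.

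CYP2R1 encodes the hydroxylase that makes the circulating form of vitamin D, the step before activation. KO livers at 12 h had 1.46, 0.243, 0.873 and 0 CPM under APAP, against 16.4, 17.0, 11.02 and 6.16 CPM under DMSO. At 24 h they had 0, 1.31, 1.45 and 1.65 CPM under APAP, against 13.4, 23.3, 8.42 and 9.02 CPM under DMSO. The KO groups were separated at both times, and the gene fell at 12 h (-4.22 ± 0.83, adjusted p = 8.82e-04) and at 24 h (-3.62 ± 0.79, adjusted p = 0.00268). Without KO APAP replicate 1 the 12 h value was -5.03.

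In WT livers CYP2R1 had 8.26, 6.32, 7.61 and 21.3 CPM under APAP at 12 h, against 9.67, 33.9, 11.9 and 10.2 CPM under DMSO, and 12.8, 6.59, 2.80 and 5.05 CPM under APAP at 24 h, against 16.5, 30.8, 4.74 and 8.38 CPM under DMSO. The WT groups overlapped at both times and were not called (-0.59 ± 0.68 and -1.14 ± 0.69). The difference in response between KO and WT was -3.63 ± 1.05 at 12 h (adjusted p = 0.273) and -2.48 ± 1.02 at 24 h (adjusted p = 1.00), and so did not pass. Family 27, which also includes enzymes acting on vitamin D and on the sterol side chain, had no call in these 4 comparisons. Its best counted member, cyp27a1.1, had 17.8, 13.3, 11.1 and 15.3 CPM in KO APAP livers at 24 h, against 48.5, 36.7, 52.4 and 58.2 CPM in KO DMSO livers, which did not overlap but missed the threshold (-1.76 ± 0.55, adjusted p = 0.0519).

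CYP1A1, the zebrafish cyp1a, is the classic target of the aryl hydrocarbon receptor and oxidizes polycyclic aromatic compounds. KO livers at 24 h had 23.3, 21.6, 33.97 and 21.7 CPM under APAP, against 97.9, 90.1, 139 and 131 CPM under DMSO, and KO livers at 12 h had 35.6, 8.28, 60.2 and 37.6 CPM under APAP, against 299, 201, 31.5 and 58.1 CPM under DMSO. It fell in KO at 12 h with overlapping groups (-2.06 ± 0.54, adjusted p = 0.0165), and at 24 h with separate groups (-2.18 ± 0.55, adjusted p = 0.00956, and 0.0588 with limma voom). The 12 h call rested on the high KO DMSO replicates 1 and 2, with a log2 fold change of -1.45 and an adjusted p of 0.136 without replicate 1 and 0.0528 without replicate 2, and was also lost with limma voom (0.0560). WT livers had 98.1, 53.7, 61.3 and 47.1 CPM under APAP at 12 h, against 46.7, 229.5, 36.7 and 48.8 CPM under DMSO, and 74.4, 47.6, 68.1 and 127 CPM under APAP at 24 h, against 146, 159, 108 and 125 CPM under DMSO. Both WT pairs overlapped and neither was called (-0.47 ± 0.52 and -0.76 ± 0.52).

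Another family 1 gene, cyp1d1, was lower under APAP in all 4 comparisons and called in 2. KO livers at 12 h had 3.47, 0.243, 13.5 and 9.83 CPM under APAP, against 25.01, 19.8, 36.4 and 23.4 CPM under DMSO (-1.95 ± 0.60, adjusted p = 0.0460). WT livers at 24 h had 6.21, 4.396, 2.42 and 2.02 CPM under APAP, against 25.3, 16.2, 17.0 and 14.0 CPM under DMSO (-2.26 ± 0.61, adjusted p = 0.0284). Neither pair overlapped, but each call lay close to the threshold. The KO call was lost without KO APAP replicate 1 or any KO DMSO library (adjusted p 0.0589 to 0.112), was -2.53 and still called without KO APAP replicate 3, and was lost without the 3 libraries with fewest genes (0.0922). The WT call was lost with limma voom (0.0565) and without WT APAP replicate 2, 3 or 4 or WT DMSO replicate 1, 2 or 3 (0.0518 to 0.124). The remaining family 1 gene, cyp1c1, had 13 counts in all in KO APAP livers at 24 h, from 1 library, against 0 counts in KO DMSO livers, and was not called.

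Among the lowered genes, cyp2ad2 and cyp2n13 had the smallest adjusted p. Both belong to a fish cluster of cyp2ad, cyp2n, cyp2p and cyp2v genes that is the counterpart of the human CYP2J2 locus, whose enzyme epoxidizes polyunsaturated fatty acids. For cyp2ad2, KO livers at 24 h had 23.2, 31.9, 26.3 and 60.2 CPM under APAP, against 442, 396, 495 and 465 CPM under DMSO. At 12 h they had 13.0, 41.4, 73.9 and 38.9 CPM under APAP, against 142, 69.5, 157 and 154 CPM under DMSO. The 24 h groups were far apart, and the 12 h groups overlapped by 1 library on each side. The gene fell in KO at 24 h (-3.67 ± 0.46, adjusted p = 5.33e-07) and at 12 h (-1.65 ± 0.43, adjusted p = 0.0150), where the call was lost without KO APAP replicate 1 (adjusted p = 0.0544).

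WT livers had 322, 112, 144 and 292 CPM of cyp2ad2 under APAP at 24 h, against 371, 704, 554 and 526 CPM under DMSO, and 135, 75.2, 226 and 235 CPM under APAP at 12 h, against 73.7, 196, 68.4 and 164 CPM under DMSO. The WT groups at 24 h did not overlap, yet the difference was not called (-1.31 ± 0.42, adjusted p = 0.0837), and at 12 h they overlapped (0.42 ± 0.42, adjusted p = 0.879). The KO response minus the WT response was -2.36 ± 0.60 at 24 h (adjusted p = 0.155) and -2.06 ± 0.59 at 12 h (adjusted p = 0.273), and neither passed the test.

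For cyp2n13, KO livers at 24 h had 24.7, 24.0, 33.5 and 33.7 CPM under APAP, against 261, 314, 257 and 374 CPM under DMSO. WT livers at 24 h had 116, 47.4, 166 and 93.1 CPM under APAP, against 292, 488, 388 and 259 CPM under DMSO. Both pairs were separate, and the gene fell in KO (-3.38 ± 0.43, adjusted p = 7.17e-07) and in WT (-1.75 ± 0.40, adjusted p = 0.00672). Both calls held in every alternative.

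At 12 h the log2 fold change of cyp2n13 was negative in KO and positive in WT. KO livers had 53.6, 18.01, 68.3 and 53.8 CPM under APAP, against 207, 206, 73.2 and 118 CPM under DMSO, while WT livers had 216, 141, 221 and 198 CPM under APAP, against 107, 179.8, 48.6 and 51.9 CPM under DMSO. The KO libraries did not overlap and the gene fell (-1.64 ± 0.40, adjusted p = 0.00954), whereas the WT libraries overlapped and the log2 fold change of 1.00 was not called. The difference in response was -2.64 ± 0.56 (adjusted p = 0.0448), the only P450 gene called among the 0.0703% of tested genes that passed this test at 12 h. That call was lost when any 1 of 12 of the 16 libraries was left out, namely all 4 WT APAP libraries, WT DMSO replicates 1, 3 and 4, KO APAP replicates 1, 2 and 4 and KO DMSO replicates 1 and 2 (adjusted p between 0.0554 and 0.202). With the replicate number as a block its adjusted p was 0.0705, and the call was also lost when only the groups compared were fitted.

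**Figure D3:**
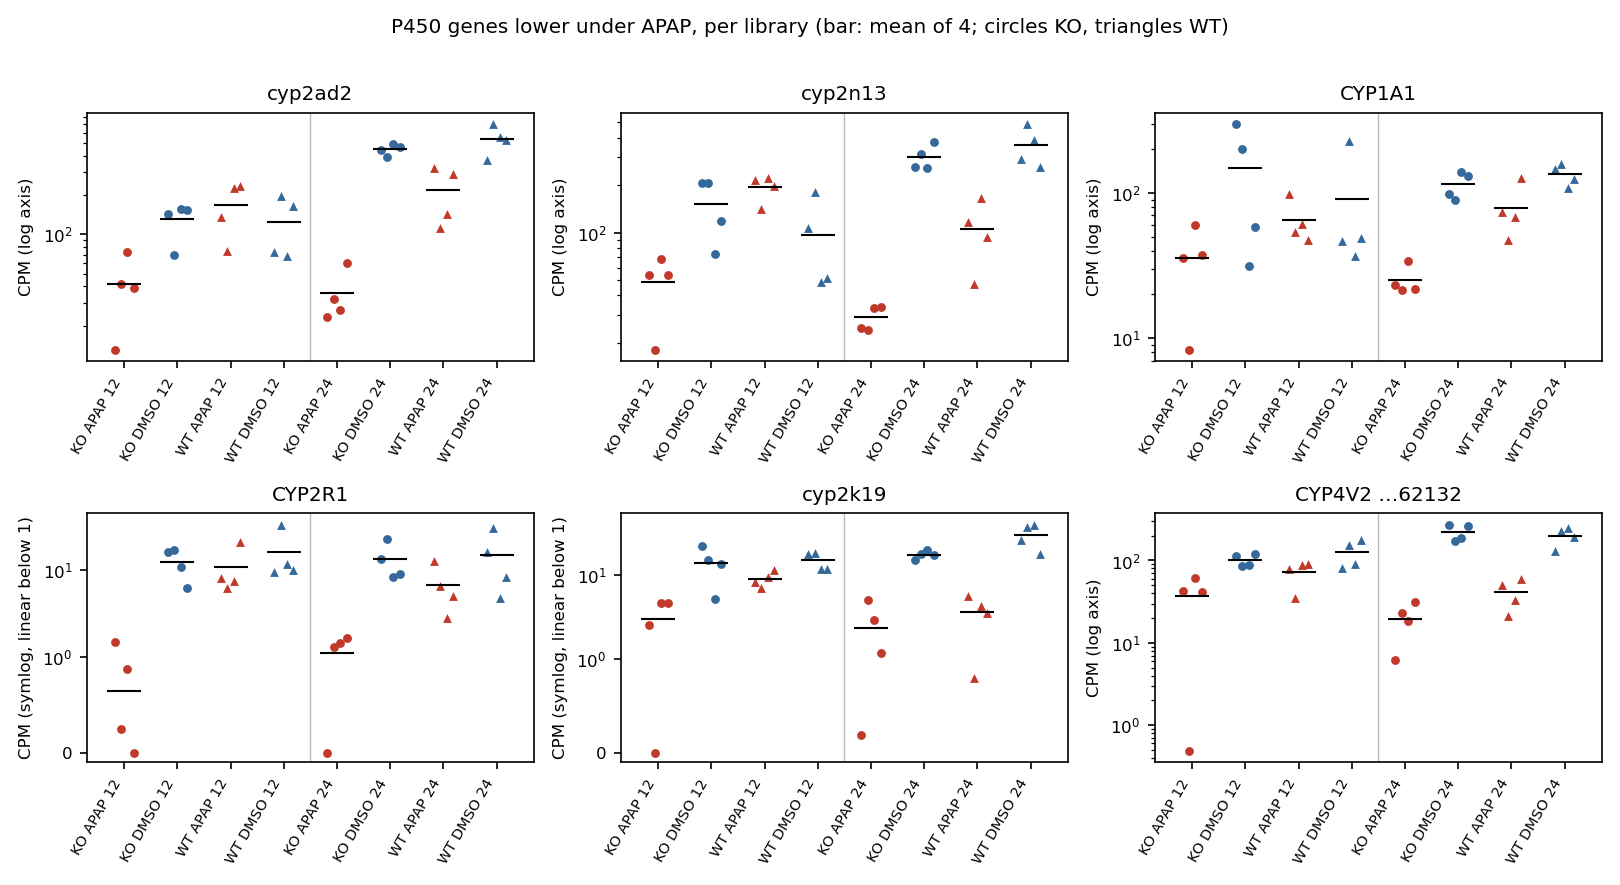
CPM of 6 P450 genes that APAP lowered in at least 1 comparison, in each library of the 8 groups (log axis, or linear below 1 where a library had 0), with 12 h left and 24 h right of the grey line; circles are KO, triangles WT, red APAP, blue DMSO, and bars the mean of 4. In KO at 24 h all 6 genes have red points below every blue point, and the low red circle of CYP4V2 at 12 h is KO APAP replicate 2.

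Gene order was taken from RefSeq on the GRCz12tu assembly, which is not the build the reads were counted on. There cyp2n13, cyp2ad6, cyp2ad2, cyp2v1, cyp2ad3, cyp2p6, cyp2p7, cyp2p8 and cyp2p10 form a run. Any protein-coding gene between members of a run is itself a cyp gene. Of these 9 genes, 8 had negative log2 fold changes in KO at 24 h, with a median of -1.57, and 7 in WT at 24 h, with a median of -0.94. Only cyp2ad2 and cyp2n13 were called in KO and only cyp2n13 in WT. The exception in both was cyp2v1 (1.33 in KO and 0.20 in WT, neither called), whose span overlaps those of cyp2ad2, cyp2ad3 and cyp2p6 in that annotation, so that its reads and theirs may not be cleanly separated. In WT cyp2p10 was also above 0, and in KO at 24 h it had 0 counts under APAP and 1 under DMSO. In all, 43 P450 genes matched that annotation by symbol and 30 of them stood in 7 such runs. Tandem copies that are nearly identical may share reads, which makes the split of counts between neighbours uncertain.

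A second run holds cyp2k18, cyp2k19, cyp2k16, cyp2k8 and cyp2k6, members of a fish group. All 5 had negative log2 fold changes in KO at both times, with medians of -2.22 at 12 h and -2.45 at 24 h. The values nearest 0 in KO were -0.26 at 12 h and -0.11 at 24 h. In WT 3 of the 5 were negative at each time. Some of these signs rest on few counts. In KO livers cyp2k8 had 1 count under APAP against 37 under DMSO at 12 h, and 1 against 19 at 24 h. In WT livers at 24 h cyp2k6 had 17 counts under APAP against 2 under DMSO. For cyp2k19, KO livers had 0.193, 5.03, 2.89 and 1.18 CPM under APAP at 24 h, against 14.9, 17.7, 19.6 and 16.9 CPM under DMSO, and WT livers had 5.61, 0.799, 4.29 and 3.53 CPM under APAP, against 25.5, 36.8, 39.1 and 17.4 CPM under DMSO. It fell in KO (-2.89 ± 0.69, adjusted p = 0.00663) and in WT (-3.05 ± 0.68, adjusted p = 0.00536), without overlap and in every alternative, with -3.60 in KO without KO APAP replicate 2. KO livers at 12 h had 2.56, 0, 4.58 and 4.62 CPM of cyp2k19 under APAP, against 21.8, 14.9, 5.16 and 13.5 CPM under DMSO. This smaller separation was called (-2.22 ± 0.67, adjusted p = 0.0422), but not without KO APAP replicate 1 or KO DMSO replicate 1, 2 or 4 (adjusted p 0.0746 to 0.133), nor with the replicate number as a block (0.0635).

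In the same run, cyp2k16 had 8.49, 8.30, 10.4 and 11.8 CPM in KO livers under APAP at 24 h, against 50.04, 46.9, 49.4 and 57.1 CPM under DMSO. In WT livers at 24 h it had 10.02, 3.80, 6.71 and 13.9 CPM under APAP, against 36.9, 26.5, 26.4 and 36.7 CPM under DMSO. It fell in KO (-2.38 ± 0.48, adjusted p = 0.00108) and in WT (-1.88 ± 0.48, adjusted p = 0.0164), with tight groups in KO. The WT call was lost without WT APAP replicate 2 (adjusted p = 0.0876) or replicate 3 (0.0762).

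Of the other family 2 groups, the 3 tested cyp2x genes were negative in both genotypes at 24 h and cyp2x9 was called in KO. It had 0, 0.655, 1.69 and 0.472 CPM under APAP, against 3.90, 9.77, 5.97 and 4.64 CPM under DMSO (-3.10 ± 0.94, adjusted p = 0.0425). These are few counts, and the call was lost without any library of the pair except KO APAP replicate 3, without which the value was -3.95 (adjusted p without the others 0.0552 to 0.157), and with the replicate number as a block (0.0555). None of the 6 tested cyp2aa genes was called for APAP. Their lowest member by log2 fold change, cyp2aa2, which was chosen after its values were seen, had log2 fold changes between -2.86 and -2.12 in the 4 comparisons, with adjusted p no lower than 0.109.

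Family 3 also holds cyp3c1, cyp3c3 and cyp3c4, a fish group that forms a run of cyp genes in the GRCz12tu gene order. Unlike cyp3a65, these genes had negative log2 fold changes in all 4 comparisons. Only cyp3c1 was called, in WT at 24 h, where it had 14.8, 22.8, 23.5 and 46.7 CPM under APAP, against 73.4, 67.0, 82.9 and 50.3 CPM under DMSO (-1.34 ± 0.38, adjusted p = 0.0372). In KO livers at 24 h it had 38.4, 15.9, 26.02 and 23.1 CPM under APAP, against 55.02, 37.9, 31.2 and 33.6 CPM under DMSO. The WT groups were just separate and the KO groups overlapped (-0.61 in KO, not called). The WT call was lost without WT APAP replicate 1, 2 or 3 or WT DMSO replicate 1, 2 or 3 (adjusted p 0.0715 to 0.152) and without the filter (0.187).

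In family 4, whose members hydroxylate the ends of fatty acids, the CYP4V2 copy ENSDARG00000062132 fell in both genotypes at 24 h. KO livers had 6.18, 23.2, 18.3 and 31.1 CPM under APAP, against 273, 171, 187 and 260.4 CPM under DMSO. WT livers had 50.1, 21.4, 33.2 and 60.1 CPM under APAP, against 131, 229, 248 and 191 CPM under DMSO. Neither pair came near to overlapping. Its log2 fold change was -3.500 ± 0.59 in KO (adjusted p = 7.60e-05), which held in every alternative, and -2.28 ± 0.55 in WT (adjusted p = 0.0112), which was lost without WT APAP replicate 2 (0.0644) or replicate 3 (0.0548). At 12 h the same gene had 43.1, 0.487, 61.7 and 40.9 CPM in KO APAP livers, against 114, 86.5, 87.6 and 119.6 CPM in KO DMSO livers, and was not called.

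The second copy, CYP4V2 ENSDARG00000061585, had a log2 fold change of -0.11 ± 0.58 in KO and -0.74 ± 0.58 in WT at 24 h and was not called in any of the 4 comparisons. The fish gene cyp4t8, which is outside the rule for named genes and was chosen because it completes the KO calls at 24 h, had 9.84, 6.55, 10.1 and 12.0 CPM under APAP, against 32.3, 34.5, 42.9 and 56.01 CPM under DMSO (-2.101 ± 0.54, adjusted p = 0.0112). Its groups were apart, but the call was lost without KO APAP replicate 2 (0.0599) and with limma voom (0.0646).

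The sterol, bile acid and retinoid enzymes gave no call for APAP. CYP8B1, which sets the ratio of bile acids by hydroxylating the sterol ring, averaged 59.3 ± 16.0 CPM in KO APAP livers and 69.3 ± 8.39 CPM in KO DMSO livers at 24 h, and 60.7 ± 36.1 CPM in WT APAP livers and 77.8 ± 25.6 CPM in WT DMSO livers (SD, n = 4 each). Its log2 fold changes lay between -0.50 and 0.35, and the groups overlapped throughout. CYP20A1, an enzyme without an assigned substrate, had log2 fold changes between -0.20 and 0.22 with standard errors of 0.39.

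CYP51A1, the demethylase of lanosterol in cholesterol synthesis, was near its detection limit at 24 h. It had 0, 0, 0 and 0.944 CPM in KO APAP livers, against 0.433, 4.98, 0.815 and 0.546 CPM in KO DMSO livers (-2.80 ± 1.40, adjusted p = 0.345). The 3 cyp46a1 copies, related to the cholesterol hydroxylase known from brain, stayed at or below 16.6 CPM in every library and were not called. The CYP27A1 copy ENSDARG00000055159 and cyp27a2 were similarly low, with no value above 4.59 and 3.49 CPM.

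The summed shares of cell type markers are set here beside the results for APAP. In KO livers at 24 h the 15 hepatocyte markers summed to between 10.1% and 12.6% of counts under APAP and between 12.2% and 14.4% under DMSO, with 0 or 1 marker at 0 in the APAP libraries and 1 in the DMSO libraries. In WT livers at 24 h they summed to between 6.97% and 11.03% under APAP and between 8.95% and 12.4% under DMSO. Of these 15 genes, 1 was lower and none higher in each genotype at 24 h, where 3% of all tested genes were lower in KO and 1.55% in WT. In KO at 12 h, 2 were higher and none lower, where 3.09% of all tested genes were higher and 2.13% lower. Their median log2 fold change there was 0.64, beside -0.30 over all genes. In WT at 12 h none was called. The hepatocyte markers summed at 12 h to between 9.80% and 13.5% under APAP and between 7.06% and 13.9% under DMSO in KO livers, which overlapped. At 24 h the 18 pancreas markers summed to between 2.28% and 3.04% under APAP and between 4.34% and 7.06% under DMSO in KO livers, and to between 1.49% and 10.9% under APAP and between 3.32% and 7.48% under DMSO in WT livers. WT APAP 24 h replicate 2 held both the 10.9% of pancreas markers and the 6.97% of hepatocyte markers. Among the genes called lower in WT at 24 h, it was the lowest APAP library for cyp2n13, cyp2k16, cyp2k19 and CYP4V2 ENSDARG00000062132. For cyp1d1 and cyp3c1 it was not. In KO livers at 12 h the same markers overlapped, at between 1.76% and 4.18% under APAP and between 1.33% and 5.05% under DMSO. Red blood cell markers, 11 genes, summed at 24 h to between 0.0284% and 0.0637% under APAP and between 0.105% and 0.239% under DMSO in KO livers. In WT livers at 24 h they summed to between 0.0346% and 0.0680% under APAP and between 0.131% and 0.293% under DMSO. In KO livers at 12 h they overlapped, at between 0.0686% and 0.292% under APAP and between 0.117% and 0.262% under DMSO. At 12 h the 15 intestine markers, from a tissue that also expresses cyp3a65, summed to between 0.360% and 0.615% under APAP and between 0.470% and 2.19% under DMSO in KO livers. In WT livers at 12 h they summed to between 0.311% and 1.04% under APAP and between 0.366% and 0.986% under DMSO. Of the 13 intestine markers tested, 2 were called lower in KO at 12 h, where 2.13% of all tested genes were lower, and none in WT at 12 h. Hepatocyte markers in WT at 12 h ran between 8.10% and 11.9% under APAP and between 7.42% and 14.8% under DMSO. Pancreas markers there ran between 2.29% and 3.80% under APAP and between 1.07% and 4.46% under DMSO. Red blood cell markers there ran between 0.101% and 0.213% under APAP and between 0.103% and 0.317% under DMSO. The part of these marker levels in the P450 results was not tested.

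Set side by side, the responses of the 2 genotypes were called in the same direction for cyp3a65, CYP24A1 and cyp2y3 at 12 h and for cyp2k16, cyp2k19, cyp2n13 and CYP4V2 ENSDARG00000062132 at 24 h. A call in 1 genotype and not in the other does not show that the responses differ. The test of the difference called 1 P450 gene at 12 h, cyp2n13, and none at 24 h, where 0.105% of all tested genes were called. At 24 h, 6 P450 genes had an unadjusted p under 0.05 in edgeR, and DESeq2 called 1, both without a matching share of all tested genes.

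**Figure D4:**
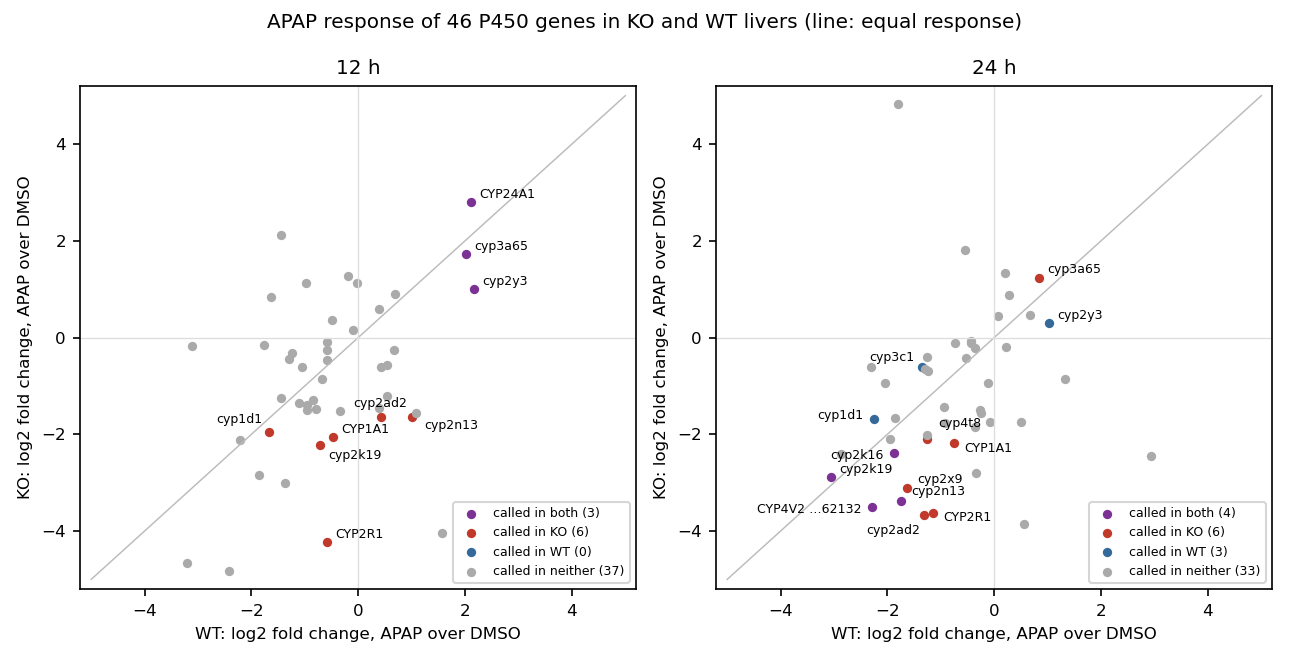
Log2 fold change of APAP over DMSO in KO (vertical axis) against WT (horizontal axis) for the 46 tested P450 genes at 12 h and 24 h; colours mark the genotype in which a gene was called, and the diagonal marks an equal response. At 12 h the 6 genes called only in KO lie below 0 on the KO axis, and at 24 h the 4 genes called in both lie in the lower left.

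Without APAP, few single P450 genes were called between the genotypes. At 12 h under DMSO, edgeR called none of the 46 genes in KO against WT, where 0.246% of all tested genes were called; 4 P450 genes had an unadjusted p under 0.05, and DESeq2 and limma voom also called none. Without the 3 libraries with the fewest genes, 4 P450 genes were called. At 24 h under DMSO, 1 gene, cyp2k6, was called, where 0.281% of all tested genes were called. Fitted on those 8 libraries alone, 6 P450 genes were called, 2 higher and 4 lower. The KO and WT libraries did not overlap for 8 of the 46 genes, 4 lower and 4 higher, where 10.4% of all tested genes did not overlap. For the unadjusted p and the alternative fits, the shares of all tested genes are not given here.

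The summed share of all 50 P450 genes at 24 h under DMSO was 0.267% to 0.342% of counts in KO livers, against 0.407% to 0.509% in WT livers. The cyp3a65 gene alone made up 0.0904% to 0.105% of counts in KO livers, against 0.153% to 0.288% in WT livers. Neither pair of ranges overlapped as shares of raw counts, which lack the scaling used for CPM. The scaling factors ran between 0.702 and 0.899 in these KO libraries and between 0.885 and 0.953 in the WT libraries. After that scaling the summed P450 ranges overlap, whereas the CPM of cyp3a65 given above remain apart. The cyp3a65 difference was not called (-0.84 ± 0.36, adjusted p = 0.556). The P450 genes other than cyp3a65 summed to 0.162% to 0.252% in KO livers, against 0.199% to 0.356% in WT livers, which overlapped. The median log2 fold change of KO against WT over the 46 tested genes was -0.11, beside -0.05 over all genes. At 12 h under DMSO the summed share was 0.206% to 0.300% in KO livers, against 0.153% to 0.280% in WT livers, which overlapped.

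The cyp2k6 libraries at 24 h had 21.4, 9.37, 11.9 and 9.02 CPM in KO DMSO livers, against 0.189, 0, 0 and 0.200 CPM in WT DMSO livers. These are 223 counts in KO and 2 counts in WT, a ratio of 133 with a 95% counting interval of 36.4 to 1104, which covers counting error only (adjusted p = 0.0140). The call was lost without WT DMSO replicate 2 (adjusted p = 0.0838) or replicate 3 (0.0630), both at 0 counts. At 12 h under DMSO the same gene had 9.15, 8.56, 13.3 and 9.605 CPM in KO livers, against 1.77, 3.96, 5.09 and 0.303 CPM in WT livers, without overlap and without a call (adjusted p = 0.851). Under APAP the genotypes overlapped at both times, at 0, 3.496, 4.58 and 1.42 CPM in KO and 1.60, 0, 0.559 and 1.51 CPM in WT at 24 h.

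Under APAP, KO and WT livers differed at 12 h in 8 P450 genes, 3 higher and 5 lower, where 2.23% of all tested genes were called. The 5 lower genes were CYP2R1 (-4.003 ± 0.82, adjusted p = 0.00481), cyp2aa1 (-2.82 ± 0.61, adjusted p = 0.00735), cyp2ad2 (-2.01 ± 0.43, adjusted p = 0.00745), cyp2n13 (-2.003 ± 0.41, adjusted p = 0.00439) and cyp2y3 (-1.04 ± 0.29, adjusted p = 0.0407), the last of which lies beyond the rule for named genes and completes the count. Their libraries, apart from cyp2aa1, are given above, and none of the 5 overlapped. The cyp2y3 call was lost without WT APAP replicate 1, 3 or 4 or KO APAP replicate 1, 2 or 4 (adjusted p 0.0595 to 0.118), without the 3 libraries with fewest genes (0.0705) and without the filter (0.126), and the other 4 held without any single library, CYP2R1 at -4.81 without KO APAP replicate 1. Fitted on those 8 libraries alone, cyp2n13 was the 1 gene called.

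The tandem family 2 gene cyp2aa1 was lower in KO at both times and under both treatments by its means. At 12 h it had 4.39, 0, 12.0 and 7.32 CPM in KO APAP livers, against 48.6, 30.8, 47.4 and 41.6 CPM in WT APAP livers. At 24 h it had 23.7, 9.61, 13.7 and 21.2 CPM in KO APAP livers against 44.9, 73.9, 41.02 and 75.5 CPM in WT APAP livers, and 8.23, 6.78, 12.2 and 23.0 CPM in KO DMSO livers against 38.97, 76.0, 47.4 and 60.7 CPM in WT DMSO livers. All 3 of these pairs were separate. Only the first was called, and the adjusted p was 0.1496 for the APAP pair and 0.146 for the DMSO pair at 24 h and 0.292 for the overlapping DMSO pair at 12 h.

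The 3 genes that were higher in KO than WT under APAP at 12 h rest on KO APAP replicate 2, the library with 4129 detected genes. CYP26B1, a retinoic acid hydroxylase, had 6.40, 82.3, 7.42 and 5.59 CPM in KO APAP livers, against 4.05, 0.422, 1.74 and 2.53 CPM in WT APAP livers (3.51 ± 0.83, adjusted p = 0.0158), and 1.56 without that library (adjusted p = 0.296). The fish gene cyp2x7 had 27.4, 68.9, 23.6 and 13.1 CPM in KO, against 5.56, 2.32, 13.7 and 10.8 CPM in WT (2.04 ± 0.57, adjusted p = 0.0465), and 1.42 without it (adjusted p = 0.171). For cyp2k16 the values were 11.5, 86.4, 15.7 and 27.9 CPM in KO and 14.8, 8.22, 5.22 and 9.71 CPM in WT (1.89 ± 0.47, adjusted p = 0.0242), and 0.96 without it (adjusted p = 0.187). In each, replicate 2 was the highest KO library by far. With the replicate number as a block the adjusted p were 0.0589, 0.0808 and 0.0535, and with limma voom 0.0845, 0.0777 and 0.134. Leaving out WT APAP replicate 2 or 3 also lost all 3 calls (adjusted p 0.0541 to 0.144), as did WT APAP replicate 4 for cyp2x7 (0.0727) and cyp2k16 (0.0586) and WT APAP replicate 1 for cyp2x7 (0.143).

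CYP26A1, the other retinoic acid hydroxylase, was not tested. It had 82.3 CPM in KO APAP 12 h replicate 2, from 338 counts, the same number as CYP26B1 in that library, and no more than 2.97 CPM in any of the other libraries.

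**Figure D5:**
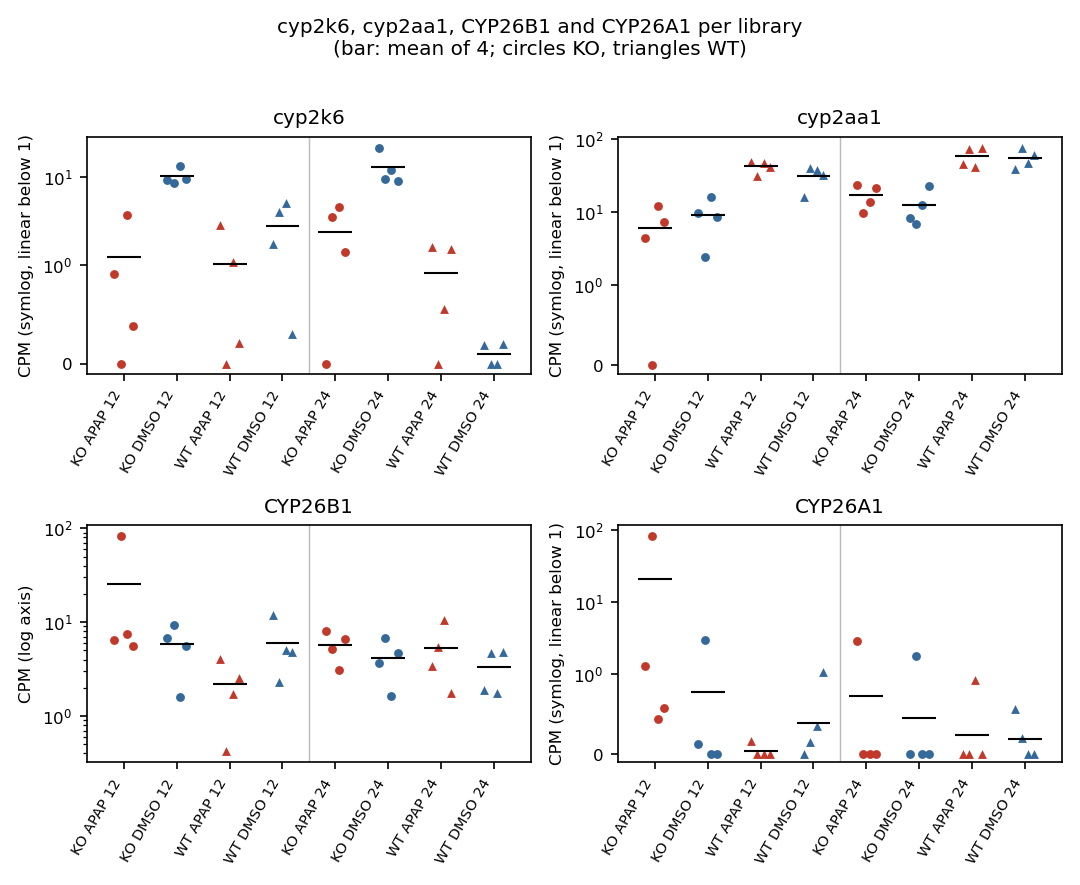
CPM of cyp2k6, cyp2aa1, CYP26B1 and CYP26A1 in each library of the 8 groups (log axis, or linear below 1 where a library had 0), with 12 h left and 24 h right of the grey line; circles are KO, triangles WT, red APAP, blue DMSO, and bars the mean of 4. The blue circles of cyp2k6 lie above the blue triangles at both times, and the high red circle of CYP26B1 and CYP26A1 at 12 h is KO APAP replicate 2.

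At 24 h under APAP, 2 P450 genes were lower in KO than in WT and none higher, where 1.19% of all tested genes were called. These were cyp2ad2 (-2.62 ± 0.44, adjusted p = 2.78e-04) and cyp2n13 (-1.87 ± 0.41, adjusted p = 0.00840), whose KO and WT libraries did not overlap. The cyp2n13 call was lost without WT APAP replicate 3 (adjusted p = 0.0583) and with limma voom (0.0981). These comparisons use the same APAP libraries as the APAP responses above and are not independent of them.

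In DMSO livers several of the same genes differed between the collection times. At 24 h against 12 h, 2 P450 genes were higher in KO livers and none lower, where 2.52% of all tested genes were called, and 5 were higher in WT livers and none lower, where 2.05% were called. The median over the 46 genes was 0.21 in KO, beside -0.08 over all genes, and 0.53 in WT, beside -0.06. CYP24A1 was higher in both genotypes, by 2.51 ± 0.56 in KO (adjusted p = 0.00727) with overlapping groups and by 3.32 ± 0.58 in WT (adjusted p = 4.54e-04) without overlap. The KO call was lost without KO DMSO 12 h replicate 2 (adjusted p = 0.0517) or KO DMSO 24 h replicate 4 (0.0728), and the WT value was 2.71 without WT DMSO 24 h replicate 3, still called.

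Some hepatocyte markers were called between the collection times in both genotypes, and some pancreas markers in KO only. Of the 15 hepatocyte markers, 7 were higher at 24 h in KO livers, with a median log2 fold change of 1.29. In WT livers 3 were higher, with a median of 0.65. Of all tested genes, 2.52% were called in KO, with a median of -0.08, and 2.05% in WT, with a median of -0.06. Of the 18 pancreas markers, 6 were higher in KO livers, with a median of 1.58, and none was called in WT livers, where the median was 1.40. None of these markers was lower, and their part in the P450 differences with time was not tested.

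Also higher at 24 h in both genotypes was cyp2ad2, by 1.78 ± 0.43 in KO (adjusted p = 0.0125, and 0.0838 without KO DMSO 12 h replicate 2) and by 2.099 ± 0.43 in WT (adjusted p = 0.00276). In WT livers cyp3a65 was higher by 2.33 ± 0.38 (adjusted p = 1.83e-04), and so was cyp2n13 by 1.88 ± 0.40 (adjusted p = 0.00466), which completes the count beyond the rule for named genes. The fish gene cyp2aa12 had 86.5, 146, 119 and 80.2 CPM in WT DMSO livers at 24 h, against 18.2, 38.1, 19.3 and 23.2 CPM at 12 h. These groups were well apart (2.13 ± 0.58, adjusted p = 0.0387), but the call was lost without WT DMSO 12 h replicate 1, 3 or 4 or WT DMSO 24 h replicate 1, 2 or 3 (0.0577 to 0.143) and with relative log expression scaling (0.0568).

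Most P450 enzymes, though not mitochondrial ones such as CYP24A1, draw electrons from the reductase POR and from cytochrome b5, and all need heme. Of 14 tested genes for electron donors and membrane partners, APAP raised 1 and lowered 2 in KO at 12 h and lowered 3 in KO at 24 h, where 5.22% and 5.05% of all tested genes were called. In WT it lowered 1 at 24 h and none was called at 12 h, where 3.2% and 1.8% of all tested genes were called. POR ENSDARG00000059035 was raised in KO at 12 h (1.53 ± 0.30, adjusted p = 9.18e-04). The other tested POR copy, ENSDARG00000055092, was not called for APAP in either genotype at either time. The cytochrome b5 gene CYB5A averaged 29.3 ± 11.7 CPM in KO APAP livers and 168 ± 29.1 CPM in KO DMSO livers at 24 h, and 52.8 ± 11.7 CPM in WT APAP livers and 129 ± 19.6 CPM in WT DMSO livers (SD, n = 4 each). It fell at 24 h in KO (-2.52 ± 0.39, adjusted p = 1.97e-05) and in WT (-1.29 ± 0.37, adjusted p = 0.0420), and at 12 h in KO (-1.32 ± 0.37, adjusted p = 0.0273).

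EPHX1, the membrane epoxide hydrolase that opens epoxides made by P450 enzymes, averaged 1.96 ± 1.28 CPM in KO APAP livers and 19.2 ± 3.21 CPM in KO DMSO livers at 24 h (SD, n = 4 each). It fell in KO at 24 h (-3.30 ± 0.64, adjusted p = 6.63e-04) and at 12 h (-1.97 ± 0.60, adjusted p = 0.0442), and under APAP at 24 h it was lower in KO than in WT (-2.64 ± 0.63, adjusted p = 0.0209). PGRMC1, a membrane partner that binds P450 enzymes, fell in KO at 24 h (-1.01 ± 0.27, adjusted p = 0.0137).

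In the heme list of 12 tested genes, ALAS1, the rate-limiting enzyme of heme synthesis outside red blood cells, was raised by APAP in KO at 12 h and in WT at 12 h and 24 h, and alas2, its red blood cell form, was lowered in WT at 24 h, against the same shares of all tested genes. ALAS1 averaged 653 ± 154 CPM in KO APAP livers and 286 ± 179 CPM in KO DMSO livers at 12 h, and 1270 ± 577 CPM in WT APAP livers and 239 ± 59.3 CPM in WT DMSO livers (SD, n = 4 each). The log2 fold change at 12 h was 1.19 ± 0.36 in KO (adjusted p = 0.0456) and 2.41 ± 0.38 in WT (adjusted p = 5.60e-05), and at 24 h it was 2.03 ± 0.37 in WT (adjusted p = 5.40e-04). The alas2 call was in WT at 24 h (-4.402 ± 1.23, adjusted p = 0.0343), where 4 of the 8 tested red blood cell markers, a list that also holds alas2, were lower.

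Of 27 tested receptors and transcription factors that act on cyp genes, 2 were called for APAP in KO at 12 h, 1 in KO at 24 h, 2 in WT at 24 h and none in WT at 12 h, beside the 5.22%, 5.05%, 3.2% and 1.8% of all tested genes called in these comparisons. CEBPB, a liver stress and acute phase factor, was raised in KO at 12 h (1.66 ± 0.33, adjusted p = 0.00119), and HNF4G, a hepatocyte nuclear factor, was lowered (-2.37 ± 0.71, adjusted p = 0.0413). At 24 h nr5a5 (-3.65 ± 0.84, adjusted p = 0.00649) and NR1H3, the oxysterol receptor LXR alpha (-2.72 ± 0.63, adjusted p = 0.00787), were lowered in WT. In KO at 24 h tiparp, a target and repressor of the aryl hydrocarbon receptor, was raised (3.01 ± 0.85, adjusted p = 0.0260). The receptor gene ahr2 was lower in KO than in WT under APAP at 12 h (-2.84 ± 0.80, adjusted p = 0.0471). It was the 1 gene of the 27 called there, beside 2.23% of all tested genes. Calls of genes in the partner lists were not run through the alternative fits.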

How the data were processed

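Library preparation details beyond pooled dissected livers in TRIzol and a column kit are not given in the sources used here. The deposited values are counts of reads for each Ensembl gene, not normalized, which the authors made with bcl2fastq, Trim Galore, HISAT2 and HTSeq on GRCz11, per the submitters' processing notes, which give no versions, annotation release or strand setting. Reads that the table assigns to no gene, 21.3% to 33.7% of each library, were left out. Gene names came from an Ensembl name table that matched 29200 of the 32519 genes.

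From the counts, filterByExpr kept 11384 genes, and edgeR 4.0.16 (R 4.3.3) with TMM scaling fitted 1 mean per group to all 32 libraries, with 24 residual degrees of freedom and a prior count of 0.125. Quasi-likelihood F-tests, two-sided, gave 12 comparisons with Benjamini-Hochberg adjustment over all tested genes. The standard error of a log2 fold change is its size divided by the root of F. The fit was tested on simulated data. Libraries of a group all differed beyond sampling noise (chi-square per degree of freedom at least 15.5).

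The P450 genes, partner lists, cell type markers and tests were chosen with earlier results of these data known. Symbols of the lists were matched also after removal of a copy suffix, a rule made after the symbols were seen. Genes named were those called for APAP or the difference of responses (up to 6 highest and 6 lowest a comparison), those called for genotype or time (up to 4 and 4), and a fixed set by role. Marker lists of hepatocytes, pancreas and red blood cells are described beside the results. The summed shares of the other lists over the 32 libraries ran between 0.197% and 2.19% for intestine, 0.123% and 1.65% for skeletal muscle, 0.0380% and 0.293% for biliary cells, 0.00857% and 0.0896% for kidney and interrenal, 0.00139% and 0.00512% for endothelium and 0.000796% and 0.0181% for macrophages. Alternatives were DESeq2 1.42.0, limma voom 3.58.1, relative log expression scaling, no filter, only the groups compared, a replicate block, removal of the 3 libraries with fewest genes, and removal of each library on its own. The number of libraries, 4 a group, and counts near 0 for several members limit the precision. Gene lengths and sequences were not used here, so levels are not compared between genes. Genes set aside by the rule are not reported here.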

Additional observations from a re-analysis of the deposited data

Results flagged for a closer look

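Dixon's criterion was applied to the CPM of the named P450 genes in 223 groups of 4 libraries. In 20 of these groups 1 value lay far from the other 3. Chance flags about 1 group in 20 where values are normally distributed, a rate that need not hold for CPM near 0. A high value was not flagged where the other 3 were at 0. WT DMSO 12 h replicate 2, the library with 8815 detected genes, held 6 of the 20 values. Its values were 229.5 CPM for CYP1A1 (36.7 to 48.8 in the others), 33.9 for CYP2R1 (9.67 to 11.9), 32.3 for cyp2k16 (17.9 to 20.4), 7.32 for cyp46a1.2 (0.372 to 1.36), 16.6 for cyp46a1.4 (1.75 to 3.03) and 0 for CYP27A1 ENSDARG00000069186 (0.929 to 1.06).

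KO APAP 12 h replicate 2, with 4129 detected genes, had 82.3 CPM for CYP26B1 (5.59 to 7.42 in the others) and 82.3 for CYP26A1 (0.436 to 1.28). KO DMSO 12 h replicate 2 had 69.5 CPM for cyp2ad2 (142 to 157), 2.97 for CYP26A1 (0 to 0.129) and 2.38 for cyp46a1.3 (0 to 0.129). In WT APAP livers at 12 h, replicate 2 had 418 CPM for cyp2y3 (599 to 627), replicate 4 had 21.3 for CYP2R1 (6.32 to 8.26) and replicate 3 had 9.35 for CYP51A1 (5.06 to 5.56).

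At 24 h, KO APAP replicate 3 had 33.97 CPM for CYP1A1 (21.6 to 23.3) and replicate 1 had 2.32 for cyp46a1.3 (0 to 0.241). KO DMSO replicate 3 had 5.43 CPM for CYP27A1 ENSDARG00000069186 (0 to 0.866) and replicate 2 had 4.98 for CYP51A1 (0.433 to 0.815). WT APAP replicate 2 had 1.199 CPM for CYP27A1 ENSDARG00000069186 (0 to 0.200) and replicate 4 had 45.2 for cyp27a1.1 (16.6 to 21.5). The part of the low number of detected genes in these values was not tested.

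The APAP response of cyp2n13 at 12 h was called different between the genotypes by a test of the difference, with -2.64 for KO against WT on the log2 scale (adjusted p = 0.0448 in edgeR). That call was lost in 14 of 23 alternatives, with adjusted p up to 0.302.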

How the results depend on the processing

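Of the 48 called results for single P450 genes, 18 were called in every alternative, 145 of 727 alternative values lost the call, and none changed sign. Fitting only the groups compared moved the number of P450 genes called from APAP to 2 in KO at 12 h, 18 in KO at 24 h and 11 in WT at 24 h. It moved those for KO against WT to 1 (APAP, 12 h), 4 (APAP, 24 h) and 6 (DMSO, 24 h), the difference of responses to 0 at 12 h and 1 at 24 h, and 24 h against 12 h in KO to 7. Without the 3 libraries with fewest genes the counts were 12 for APAP in WT at 24 h, 4 and 4 for KO against WT at 12 h under APAP and DMSO, 6 and 2 at 24 h under APAP and DMSO, 2 for the difference of responses at 12 h, and 4 in KO and 10 in WT for 24 h against 12 h. DESeq2 gave 15 for APAP in KO at 12 h, 6 for KO against WT under APAP at 24 h, and 3 and 1 for the difference of responses at 12 h and 24 h. With limma voom, KO against WT under APAP gave 5 at 12 h and 1 at 24 h. Without a filter, KO against WT under DMSO at 24 h gave 2 and the difference of responses 3 at 12 h and 1 at 24 h. The cause was not tested. Shares of all tested genes under these alternatives, or without single libraries, are not given here. These counts therefore do not show whether P450 genes moved more than other genes.

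Leaving out 1 library at a time gave 5 to 11 calls for APAP in KO at 12 h, 2 to 3 in WT at 12 h, 7 to 9 in KO at 24 h and 2 to 6 in WT at 24 h. For KO against WT it gave 4 to 10 under APAP and 0 under DMSO at 12 h, and 1 to 2 under APAP and 0 to 1 under DMSO at 24 h. The difference of responses had 0 to 1 at 12 h and 0 at 24 h, and 24 h against 12 h had 0 to 3 in KO and 4 to 5 in WT.

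Deviations of same-numbered libraries were at most weakly correlated (correlations between -0.128 and 0.210, with all 4 over 0.1 in 0 of 10 comparisons). This check cannot show whether same-numbered libraries were paired, because the labels do not give the origin of the pools. With the replicate block, KO against WT under APAP at 12 h had 5 calls and the difference of responses at 12 h had 0. Relative log expression scaling moved the median of all genes by -0.20 for APAP in KO and -0.11 in WT at 12 h, by -0.15 for KO against WT under APAP at 12 h, and by -0.20 in KO and -0.16 in WT for 24 h against 12 h.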
